A study of Mus musculus with 2 samples.

Results

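The genes examined here encode receptors for the transmitters acetylcholine, glutamate, GABA, glycine and serotonin: ion channels that open when the transmitter binds, and the G-protein-coupled glutamate and GABA-B receptors that were chosen with them. They were chosen by gene symbol alone, without use of measured values: names made of Chrna, Chrnb, Gria, Grik, Grin, Grm, Glra or Htr3 and a number or letter, the symbols Chrnd, Chrne, Chrng and Glrb, and names starting with Gabra, Gabrb, Gabrg, Gabrd, Gabre, Gabrr or Gabbr, with Grina left out. The rule took 67 of the 26883 named genes on the array. One of them, Grin1os, is a transcript from the strand opposite Grin1 and not a receptor, which leaves 66 receptor genes.

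The cells came from 1 mouse glioblastoma stem cell line, made from SB transposon-driven tumors and kept as neurospheres in serum-free medium with EGF and bFGF at 10 ng/ml. The Stat5b-knockdown cells stably carried a lentiviral short hairpin RNA against Stat5b, and the control cells a lentiviral non-target hairpin. Each group was 1 Agilent array of Cy3-labelled RNA. There were no replicates, so no test was possible, and every difference describes 2 arrays and cannot be set against the spread between cultures.

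Stat5b itself, the targeted transcription factor, had a processed signal of 497.7 on the Stat5b-knockdown array and 1991 on the control array by its brighter probe. This is a difference of -2.0 ± 0.20. A dimmer probe had 7.49, not well above background, on the Stat5b-knockdown array and 14.7 on the control array (-0.98 ± 0.66). Values are processed signals in arbitrary units, background-corrected by the scanner software. A difference is Stat5b-knockdown minus control, in log2 of the signal after each array was scaled to its 75th percentile, which was 493.6 on the Stat5b-knockdown array and 493.2 on the control array. The ± beside a difference is the scanner software's own error. It is not a measured spread: different probes of 1 gene differed with an SD of 0.31 over 7244 genes, and replicate spots of 1 probe with an SD of 0.0558. A gene was measured if a probe was well above background on both arrays by the software's flag, and was counted as higher or lower from 2-fold on. Signals of different probes depend on the probe, so no gene's level is set against another's.

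Receptor channels turn a released transmitter into a current. Glutamate opens AMPA, kainate and NMDA channels and acetylcholine opens nicotinic channels, all of which pass cations, while GABA-A and glycine receptors pass chloride. Most are known from neurons, a set of nicotinic subunits is known from skeletal muscle, and in human gliomas AMPA receptors are known to receive synaptic input from neurons.

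Most of these receptor genes gave no signal above background. Of the 67 genes, 27 (40.3%) were measured on both arrays, against 60.8% of all named genes. Another 3 were well above background on 1 array and 37 on neither. By probe, 36 of 139 were well above background on both arrays, 3 on 1 and 100 on neither. The 100 dim probes had a median signal of 3.07 on the Stat5b-knockdown array and 2.83 on the control array. Their highest signals were 14.0 and 13.6 on the Stat5b-knockdown and control arrays, and the lowest signal flagged well above background was 13.0 on the Stat5b-knockdown array and lower still on the control array. For these genes a difference between the arrays could not be measured, which does not show that the transcripts were absent.

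Detection differed between receptor families. All 5 muscle nicotinic and all 5 kainate subunits were measured, with 4 of 7 NMDA subunits and 2 of 3 GABA-A rho subunits. Of the kainate subunits, Grik1 and Grik2 were each measured by only 1 of 5 probes. The common brain channels were mostly dim: 3 of 11 neuronal nicotinic, 1 of 4 AMPA, 2 of 12 GABA-A alpha, beta and gamma, and 1 of 5 glycine receptor genes were measured. Of the G-protein-coupled members, 2 of 8 metabotropic glutamate and 1 of 2 GABA-B genes were measured. The delta and epsilon GABA-A subunits and the serotonin channel subunit Htr3a were above background on 1 array only.

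**Figure D1:**
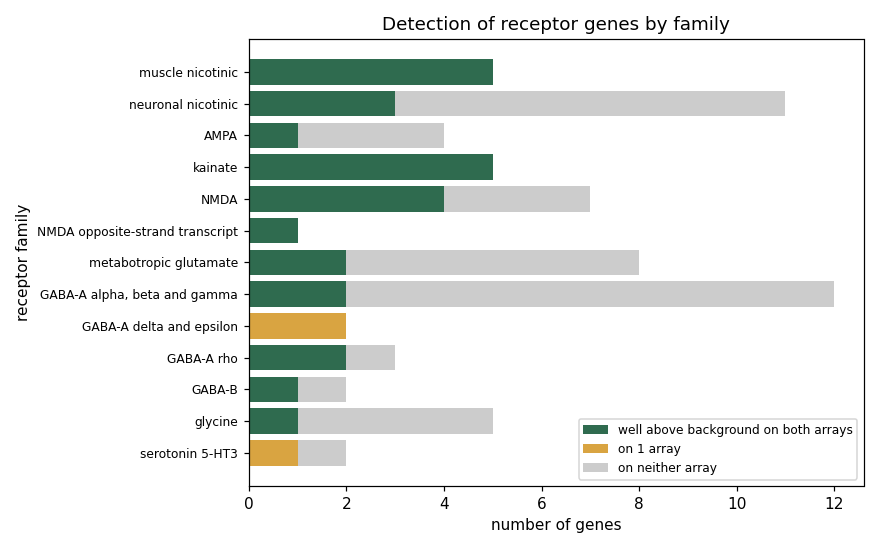
Number of genes (horizontal axis) in each receptor family (vertical axis), split into those well above background on both arrays, on 1 array and on neither. The bars of the muscle nicotinic and kainate families are green throughout, with 5 of 5 genes measured in each by at least 1 probe. Of the 12 GABA-A alpha, beta and gamma genes, 10 were on neither.

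Across the 27 measured genes the differences were mostly small. Grik4 and Chrnb4 were at least 2-fold higher in Stat5b-knockdown cells (7.41%), beside 3.67% of all 16354 measured genes. Chrna1 was at least 2-fold lower (3.70%), beside 2.41% of all measured genes. These are counts of 2 and 1 among 27, so the shares move by steps of nearly the background's own size. Below 0 were 17 of the 27 genes (63.0%), against 48.9% of all measured genes, and above 0 were 10. Their median was -0.16 and their range -2.50 to 2.17, where all genes had a median of 0.01 and a middle 95% from -0.99 to 1.16. Within 0.5 of 0 on the log2 scale were 17 genes, and 14 differed by less than the SD between probes of a gene.

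**Figure D2:**
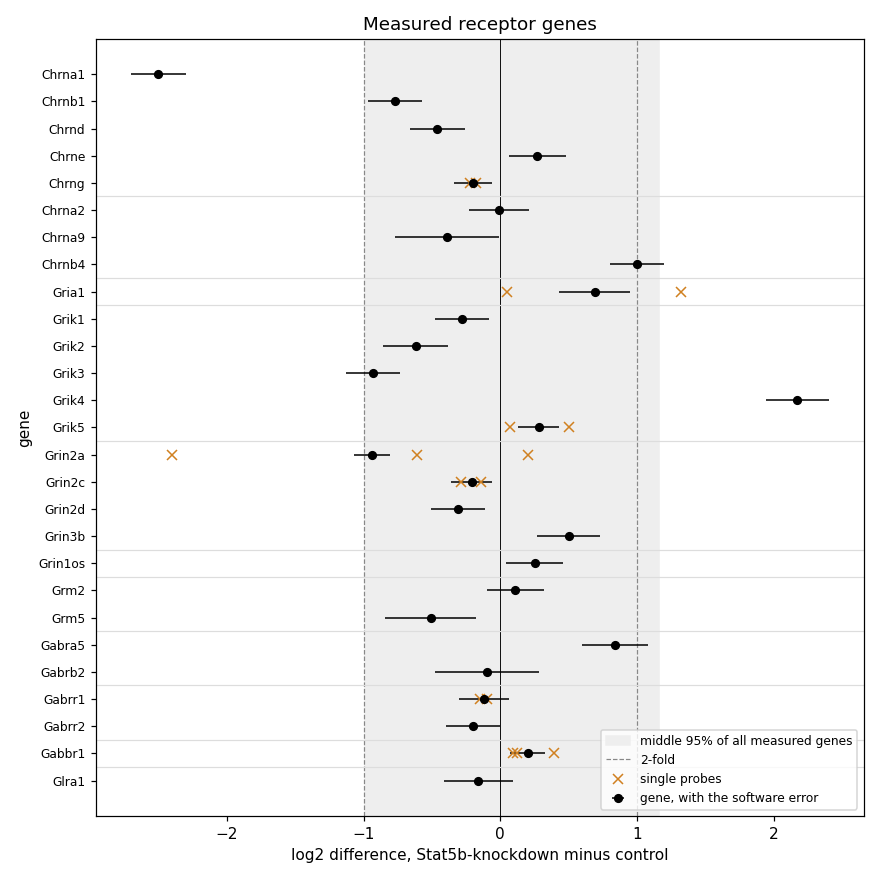
Log2 difference, Stat5b-knockdown minus control, of the 27 measured genes (black points, with the software error as bars) and of single probes where a gene had several (crosses), by family from top to bottom. The grey band holds the middle 95% of all measured genes and the dashed lines mark 2-fold. Chrna1 at -2.50 and Grik4 at 2.17 lie outside the band, and the 3 Grin2a probes spread from -2.40 to 0.20.

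The muscle acetylcholine receptor held the single gene with the largest difference, Chrna1, while its other subunits were within 2-fold. This channel of the nerve-muscle junction is built from Chrna1, Chrnb1 and Chrnd with Chrng in fetal muscle or Chrne in adult muscle. Chrna1, the subunit that carries the acetylcholine binding site, had a signal of 6808 on the Stat5b-knockdown array and 38434 on the control array, a difference of -2.50 ± 0.20 or 5.65-fold lower. Its single probe, shown because it carries the largest decrease among the receptors, begins with these 30 of its 60 bases.
Chrna1 probe, difference -2.50: agaggaaggtctgtctccttgaatcctttc

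The other 4 subunits of the channel were within 2-fold. Chrnb1 had 794 on the Stat5b-knockdown array and 1357 on the control array (-0.77 ± 0.20). Chrnd had 29907 on the Stat5b-knockdown array and 40995 on the control array (-0.46 ± 0.20). Both lay below 0 by more than the SD between probes of a gene, but less than 2-fold. The fetal subunit Chrng was read by 2 probes, with signals of 10570 on the Stat5b-knockdown array and 12336 on the control array for one and 408 and 461 on the same arrays for the other. The 2 probes lay close together at -0.22 and -0.18, and their mean was -0.20 ± 0.14. The adult subunit Chrne was the only one of the 5 above 0, with 110.3 on the Stat5b-knockdown array and 91.2 on the control array (0.27 ± 0.21), a difference smaller than the SD between probes of a gene. The median of the 5 subunits was -0.46. Chrnd and Chrng are adjacent genes, and both were measured and below 0.

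Genes that place this channel in the membrane were looked at alongside. Of 18 genes of acetylcholine handling and nicotinic receptor assembly, 14 were measured, with 1 past 2-fold in each direction, 8 above 0, 6 below 0 and a median of 0.06. Of all measured genes, 3.67% were at least 2-fold higher, 2.41% at least 2-fold lower and 48.9% below 0. These shares also stand beside the counts of the lists that follow. Dok7, the adaptor that activates the kinase MuSK at the nerve-muscle junction, had 681 on the Stat5b-knockdown array and 1673 on the control array (-1.20 ± 0.12). Ache, the enzyme that breaks down acetylcholine, had 223 on the Stat5b-knockdown array and 109.7 on the control array (1.03 ± 0.15). This call was lost after normexp, another background correction (0.74), and among brighter probes, with the brightest probe and without the last 64 rows of the array, each just under 2-fold. Bche, which also breaks down acetylcholine, had 3.12, not well above background, on the Stat5b-knockdown array and 308.4 on the control array, by a probe in those rows. That is at least 23.8-fold lower in Stat5b-knockdown cells, where the bound sets the signal above background against the higher of the other array's own signal and its lowest signal called well above background. Slc5a7, the choline transporter, had 20.8 on the Stat5b-knockdown array and 7.55, not well above background, on the control array, at least 1.72-fold higher in Stat5b-knockdown cells. The assembly list thus held members on both sides of 0. Rapsn, named after its values were seen, clusters the receptor under the membrane. Its signal was 3490 on the Stat5b-knockdown array and 5758 on the control array (-0.72 ± 0.20). Tmem35a of the same list lay farther from 0 on the other side, with 753.3 on the Stat5b-knockdown array and 400.4 on the control array (0.91 ± 0.20). Agrn, also of this list, was at 0.64 ± 0.20.

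Skeletal muscle markers were measured at the same time because the label names a glioblastoma stem cell line and these 5 subunits are known from muscle. Of 20 muscle markers, 18 were measured, where 60.8% of all named genes were, and Myf5 and Myf6 were above background on neither array. The summed level of the measured markers, in units of each array's 75th percentile, was 199 on the Stat5b-knockdown array and 231 on the control array. Such a sum depends mainly on the brightest probes, so sums of different lists are not set against each other. The median of the 18 was 0.01, with 10 above 0 and 8 below 0. Only Myod1, a transcription factor that starts the muscle programme, was past 2-fold, with 2059 on the Stat5b-knockdown array and 6753 on the control array (-1.72 ± 0.20). The related factor Myog had 3439 on the Stat5b-knockdown array and 3931 on the control array (-0.19 ± 0.20). The next farthest from 0 were the sarcomeric protein Ttn, at -0.77 ± 0.08, and the muscle cadherin Cdh15, at -0.73 ± 0.20. Farthest above 0 was the myosin heavy chain Myh8, at 0.47 ± 0.21. The fast troponin Tnni2 had 20585 on the Stat5b-knockdown array and 23786 on the control array (-0.21 ± 0.20), and the sarcomeric actin Acta1 had 11150 and 10144 on the same arrays (0.14 ± 0.20). So Chrna1 and Myod1 were past 2-fold lower, while the other 17 measured muscle markers were within 2-fold. Fewer cells of a type and less RNA per cell cannot be told apart in such bulk RNA, and the part of muscle-like expression in the Chrna1 difference was not tested.

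**Figure D3:**
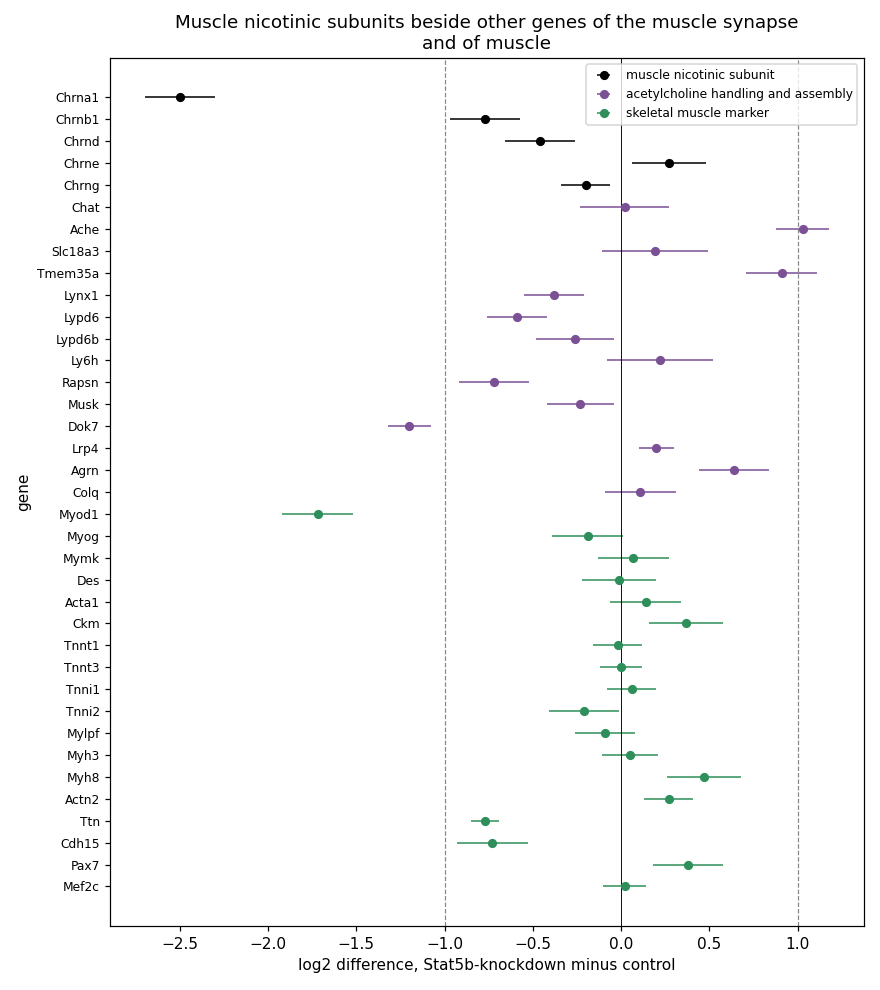
Log2 difference, Stat5b-knockdown minus control (horizontal axis), with the software error as bars, for the 5 muscle nicotinic subunits (black), the 14 measured genes of acetylcholine handling and receptor assembly (purple) and the 18 measured skeletal muscle markers (green). Left of the 2-fold line at -1 lie Chrna1 at -2.50, Myod1 at -1.72 and Dok7 at -1.20, while most muscle markers lie near 0.

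The label was also set against brain markers. Of 11 neural and glioma stem cell markers, 7 were measured on both arrays, among them Nes with 15867 on the Stat5b-knockdown array and 18174 on the control array. Sox2 (10.4 on the Stat5b-knockdown array and 7.29 on the control array) and Fabp7 were well above background on neither. The median of the 7 was -0.12, and their summed level was 238 on the Stat5b-knockdown array and 271 on the control array. Most of these sums came from Vim, with 88538 on the Stat5b-knockdown array and 96090 on the control array. Each of the other brain lists was also measured only in part, as was the set of all named genes (60.8%). Neuron markers were measured for 10 of 14 (median 0.01, summed level 58.4 on the Stat5b-knockdown array and 65.3 on the control array), with Rbfox3, Dcx and Syt1 on neither. Astrocyte markers were measured for 8 of 12, with a median of 0.55 and summed levels of 108.5 on the Stat5b-knockdown array and 94.9 on the control array. Clu made up nearly all of these sums. Past 2-fold among the astrocyte markers were 2 genes of mature astrocytes, Aldoc (1.19 ± 0.12) and Sparcl1 (2.06 ± 0.29), of which Sparcl1 was at 0.83 after normexp. S100b had 122 on the Stat5b-knockdown array and 9.22, not well above background, on the control array, at least 10.1-fold higher in Stat5b-knockdown cells. Gfap had 15.2, not well above background, on the Stat5b-knockdown array and 23.2 on the control array, at least 1.53-fold lower in Stat5b-knockdown cells. The astrocyte markers seen on 1 array thus went both ways, Gfap with signals near the background limit. Of the 8 measured on both arrays, 6 were above 0 and 2 below 0, where 48.9% of all measured genes were below 0. Oligodendrocyte lineage markers were measured for 7 of 12 (median 0.14, summed level 3.61 on the Stat5b-knockdown array and 2.87 on the control array). Olig2, listed there and among the stem cell markers, had 53.2 on the Stat5b-knockdown array and 6.28, not well above background, on the control array, at least 4.39-fold higher in Stat5b-knockdown cells by a probe in the last 64 rows. Sox10, and likewise the neuron marker Stmn2, passed the background limit on the control array alone. Sox10 was at least 1.34-fold and Stmn2 at least 1.76-fold lower in Stat5b-knockdown cells. Microglial and immune markers were measured for 6 of 12 (median 0.17, summed level 13.2 on the Stat5b-knockdown array and 10.1 on the control array), and Tmem119 was past 2-fold at 1.80 ± 0.24, and at 0.85 after normexp. Their part in the receptor differences was not tested.

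Promoter letters of the receptors past 2-fold and of muscle subunits are shown so that the differences can be read beside them. They are the 250 bases before each gene's start in the RefSeq table for GRCm38.p6, 5′ to 3′ on the gene's strand. Capitals mark E-boxes (CANNTG, which reads the same on both strands), the motif bound by basic helix-loop-helix factors such as Myod1. The form CAGCTG is counted within it.
Chrna1 promoter, chr2:73580339-73580588, minus strand: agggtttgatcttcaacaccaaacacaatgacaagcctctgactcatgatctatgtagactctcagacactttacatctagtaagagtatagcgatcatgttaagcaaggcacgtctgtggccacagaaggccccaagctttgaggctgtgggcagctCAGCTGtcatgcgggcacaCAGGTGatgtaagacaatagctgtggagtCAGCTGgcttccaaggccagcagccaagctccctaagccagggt
Chrnb1 promoter, chr11:69795938-69796187, minus strand: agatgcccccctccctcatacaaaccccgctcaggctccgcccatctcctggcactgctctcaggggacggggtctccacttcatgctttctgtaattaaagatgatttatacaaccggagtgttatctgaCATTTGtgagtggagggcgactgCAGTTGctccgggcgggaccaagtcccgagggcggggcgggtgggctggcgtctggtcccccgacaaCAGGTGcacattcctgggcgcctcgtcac
Chrng promoter, chr1:87205561-87205810, plus strand: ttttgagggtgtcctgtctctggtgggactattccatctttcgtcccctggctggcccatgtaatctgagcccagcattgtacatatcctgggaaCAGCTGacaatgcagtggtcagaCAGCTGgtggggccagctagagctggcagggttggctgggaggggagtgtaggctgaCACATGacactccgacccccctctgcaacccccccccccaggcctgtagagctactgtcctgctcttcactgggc
Chrnb4 promoter, chr9:55048545-55048794, minus strand: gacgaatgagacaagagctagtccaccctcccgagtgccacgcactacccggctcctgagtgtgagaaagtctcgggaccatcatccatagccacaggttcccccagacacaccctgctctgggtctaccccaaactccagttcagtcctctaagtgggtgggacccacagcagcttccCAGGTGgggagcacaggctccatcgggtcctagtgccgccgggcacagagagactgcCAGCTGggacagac
Grik4 promoter, chr9:42944372-42944621, minus strand: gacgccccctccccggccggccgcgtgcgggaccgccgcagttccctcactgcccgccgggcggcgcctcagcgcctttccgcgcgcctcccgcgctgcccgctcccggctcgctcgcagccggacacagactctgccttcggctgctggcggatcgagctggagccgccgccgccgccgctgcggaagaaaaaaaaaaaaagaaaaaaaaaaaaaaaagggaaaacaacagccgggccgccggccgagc

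The Chrna1 window held 3 E-boxes, of which 2 were CAGCTG, starting at -92 and -44 from the gene's start. Chrng also held 3 with 2 CAGCTG, at -155 and -132, and Chrnb1 held 3 with 0 CAGCTG. Chrnd was not in the table. The Chrne window, not printed, had 1 E-box, which was CAGCTG. Chrnb4 held 2 with 1 CAGCTG at -14, and Grik4 held 0. Of 32851 promoter windows of the same length, 66.2% held an E-box and 12.2% held 3 or more. CAGCTG was in 13.0% of them, and 1.26% held 2 or more. Among the receptor genes, Grin1os included, 48 matched the table with 56 windows, of which 55.4% held an E-box and 6 (10.7%) held CAGCTG. The STAT5 motif TTCNNNGAA, which also reads the same on both strands, was in 0 of the 6 windows named here, in 3 of the 56 receptor windows (5.36%) and in 7.02% of all windows. A match of letters is a description of these windows and not a binding site.

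Of the neuronal nicotinic subunits, Chrnb4 stood at the 2-fold limit. This beta subunit forms the channel of autonomic ganglia with Chrna3. It had 903 on the Stat5b-knockdown array and 450.3 on the control array, a difference of 1.0 ± 0.20, or 2.0-fold higher. Its difference stayed between 0.91 and 1.01 under other processing and reached 2-fold in 8 of 10 alternatives, not after normexp or median scaling. With 1 probe, its value could not change in the alternatives that only choose among probes or gene names. The count of alternatives is therefore no measure of how firm the call is. The first 30 of the 60 bases of its probe are given because the call rests on this probe alone.
Chrnb4 probe, difference 1.0: gtctccagcccctgagggagaatattttaa

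Its partner genes were not measured. Chrna5, Chrna3 and Chrnb4 lie next to each other, and of these Chrnb4 alone was well above background. Chrna2, a neuronal alpha subunit, had 76.2 on the Stat5b-knockdown array and 76.8 on the control array (-0.01 ± 0.22). Chrna9, known from the hair cells of the cochlea, had 17.2 on the Stat5b-knockdown array and 22.6 on the control array (-0.39 ± 0.38), near the lowest signals called, and its other probe was dim. The arrays thus barely differed for Chrna2, and for Chrna9 the difference was about as large as its software error. Chrna3, Chrna4, Chrna5, Chrna6, Chrna7, Chrna10, Chrnb2 and Chrnb3 were above background on neither array.

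All 5 kainate receptor genes were measured by at least 1 probe, and they went both ways. Grik1, Grik2 and Grik3 can form channels alone, and Grik4 and Grik5 add high glutamate affinity when they join them. Grik4 had 160.3 on the Stat5b-knockdown array and 35.6 on the control array, a difference of 2.17 ± 0.23 or 4.50-fold higher, the largest increase among the receptors. It was 1.14 after normexp, which still is past 2-fold. Its single probe begins with these 30 of its 60 bases.
Grik4 probe, difference 2.17: gccgagagagcagtccaagaattgatggtg

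The other kainate subunits stayed within 2-fold. Grik3 had 790.2 on the Stat5b-knockdown array and 1500 on the control array (-0.93 ± 0.20), just inside the limit. Grik2 had 35.6 on the Stat5b-knockdown array and 54.4 on the control array (-0.62 ± 0.24) by 1 of its 5 probes, and it was -0.25 after normexp. Grik1 had 2485 on the Stat5b-knockdown array and 3017 on the control array (-0.28 ± 0.20), also by 1 of 5 probes. The other 4 Grik1 probes were dim, with signals of 2.83 to 3.16 on the Stat5b-knockdown array and 2.60 to 4.81 on the control array, so most of the probes named Grik1 read no transcript above background. These 4 were matched to Grik1 by accession and the measured probe by symbol only. With RefSeq probes alone Grik1 had no value. Grik5 had 2 measured probes, at 135 on the Stat5b-knockdown array and 129 on the control array (0.07) and at 619 and 439 on the same arrays (0.50), and the gene's mean was 0.28 ± 0.15. The second probe lay in the final 64 rows of the array, and the gene was at 0.07 without it. The 3 subunits that form channels alone were all below 0 and the 2 high-affinity ones above 0, which is a description of 5 genes on 2 arrays. For Grik1 and Grik2 it rests on 1 of 5 probes each.

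**Figure D4:**
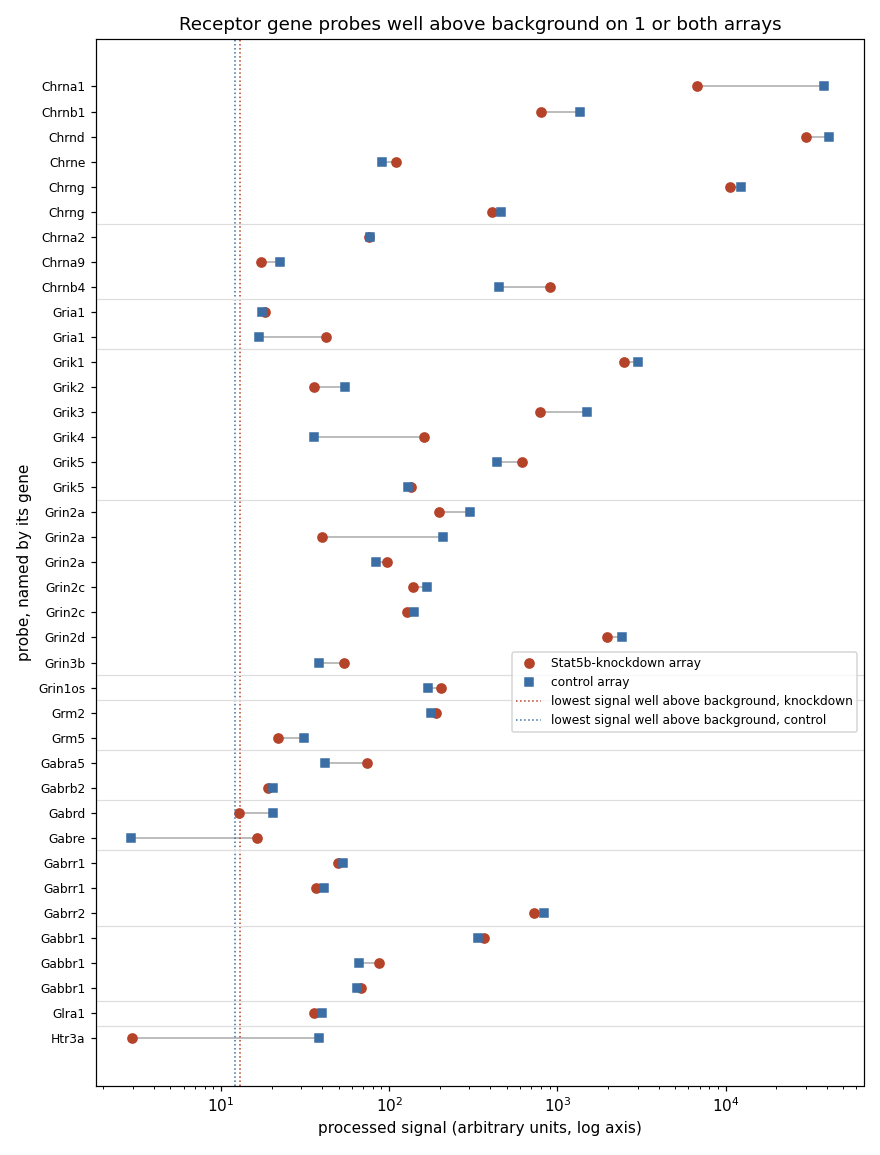
Processed signal (arbitrary units, log axis) of each receptor probe that was well above background on 1 or both arrays, on the Stat5b-knockdown array (red circles) and the control array (blue squares), joined by a line and named by gene. Dotted lines mark the lowest signal called well above background on each array. The longest lines among probes above background on both belong to Chrna1, Grin2a and Grik4, and Gabre and Htr3a end left of the dotted lines on 1 array.

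AMPA receptors, which carry most fast excitation in the brain, were mostly dim. Gria2, Gria3 and Gria4 were above background on neither array. Gria1 had 2 measured probes that did not give the same result. One had 18.2 on the Stat5b-knockdown array and 17.5 on the control array (0.05 ± 0.39), and the other, in the last 64 rows, had 41.8 and 16.8 on the same arrays (1.32 ± 0.35). Their mean was 0.69 ± 0.26, and the gene's value was 0.06 without the last rows, 0.13 after normexp and 1.32 from its brightest probe alone. The difference of Gria1 therefore rests on the 1 probe in those rows.

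Of 21 auxiliary and scaffold genes of AMPA and kainate receptors, 20 were on the array under their names and 15 were measured, with 1 past 2-fold in each direction and a median of 0.04. Nptx2, a secreted pentraxin that gathers AMPA receptors, had 91.9 on the Stat5b-knockdown array and 35.8 on the control array (1.36 ± 0.23). Cacng4, a transmembrane AMPA receptor regulatory protein, had 55.3 on the Stat5b-knockdown array and 117.7 on the control array (-1.09 ± 0.22). Both were within 2-fold after normexp, at 0.72 for Nptx2 and -0.57 for Cacng4. Gsg1l, another AMPA receptor partner, passed the background limit on the control array alone, by a probe in the last 64 rows, and at least 2.89-fold lower in Stat5b-knockdown cells. Grip2, a scaffold, was above background on the Stat5b-knockdown array alone, also by a probe there, and at least 1.66-fold higher. The kainate partners Neto2 and Neto1, named after their values were seen, were at 0.77 ± 0.12 and -0.61 ± 0.36. The list as a whole was centred on 0, as all genes were.

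NMDA receptors need Grin1 together with Grin2 or Grin3 subunits. Grin1, the obligatory subunit that binds glycine, was dim on all 3 of its probes, with signals of 2.80 to 6.34 on the Stat5b-knockdown array and 2.58 to 4.74 on the control array. Grin2b and Grin3a were also above background on neither array. The array thus measured Grin2a, Grin2c, Grin2d and Grin3b without their common partner.

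Grin2a, a glutamate-binding subunit of mature synapses, had the widest spread between probes of any receptor gene. One probe had 39.7 on the Stat5b-knockdown array and 208.7 on the control array (-2.40 ± 0.24). Another had 196.6 on the Stat5b-knockdown array and 300.4 on the control array (-0.61 ± 0.21), and the last one had 96.5 and 83.8 on the same arrays (0.20 ± 0.22). The probes span 2.60 on the log2 scale, so the gene's mean of -0.94 ± 0.13 describes none of them, and its small software error reflects only that 3 probes were averaged.

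Grin2a was at -1.10 with RefSeq probes alone, past 2-fold, and -0.54 after normexp. The remaining NMDA subunits differed little. Grin2c, known from the cerebellum, had 138 on the Stat5b-knockdown array and 169 on the control array (-0.29) by one probe and 127.5 and 140.4 on the same arrays by the other (-0.14), with a mean of -0.21 ± 0.15. Grin2d, known from the developing brain, had 1973 on the Stat5b-knockdown array and 2437 on the control array (-0.31 ± 0.20), and its second probe was dim. Grin3b, a glycine-binding subunit, had 53.8 on the Stat5b-knockdown array and 38.0 on the control array (0.50 ± 0.23), and 0.23 after normexp. None of these 3 reached 2-fold. The opposite-strand transcript Grin1os had 203 on the Stat5b-knockdown array and 171 on the control array (0.25 ± 0.21).

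Postsynaptic density scaffolds, which hold glutamate receptors in place, were measured for 15 of 17 genes. Their median was 0.02, and 1 gene was past 2-fold, downward, as were 2.41% of all measured genes. It was Dlgap3, a linker between the scaffolds PSD-95 and Shank, with 36.5 on the Stat5b-knockdown array and 94.4 on the control array (-1.37 ± 0.24), and it was at -0.70 after normexp, within 2-fold. The next farthest from 0 was Shank1 at -0.56 ± 0.32. The delta-type receptor gene Grid1 was above background on neither array. Cbln1, a secreted ligand of delta-type receptors, was the 1 gene measured of 5 in that list, with 45.4 on the Stat5b-knockdown array and 79.4 on the control array (-0.81 ± 0.23).

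Metabotropic glutamate receptors signal through G proteins. Grm2, which lowers cyclic AMP, had 190.3 on the Stat5b-knockdown array and 176 on the control array (0.11 ± 0.21). Grm5, which acts through phospholipase C, had 21.8 on the Stat5b-knockdown array and 31.1 on the control array (-0.51 ± 0.33), and -0.11 after normexp. Neither was past 2-fold, and the other metabotropic genes, among them Grm3, Grm4, Grm6, Grm7 and Grm8, were above background on neither array. Of 14 glutamate transport and metabolism genes, 10 were measured, with a median of -0.21, and 0 passed 2-fold in either direction. Below 0 were 8 of the 10, beside 48.9% of all measured genes. The farthest from 0 was Gls2, a glutaminase, which makes glutamate from glutamine. It had 177 on the Stat5b-knockdown array and 333 on the control array (-0.91 ± 0.21).

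GABA-A receptors, the main inhibitory channels of the brain, were largely dim. Only Gabra5 and Gabrb2 were measured among 12 alpha, beta and gamma subunits. Gabra5, a subunit of extrasynaptic receptors in the hippocampus, had 74.2 on the Stat5b-knockdown array and 41.4 on the control array (0.84 ± 0.24). This came from 1 of 2 probes, in the last 64 rows, and was 0.40 after normexp. Gabrb2 had 19.0 on the Stat5b-knockdown array and 20.3 on the control array (-0.10 ± 0.38) by 1 of 4 probes. Neither gene was past 2-fold, and no gamma subunit, which a synaptic receptor includes, was above background. Gabra5 and Gabrg3 are adjacent genes, and Gabrg3 was above background on neither array. The same held for Gabra6, the neighbour of Gabrb2.

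The delta subunit, known from extrasynaptic GABA-A receptors, and the epsilon subunit were each above background on a single array. Gabre had 16.5 on the Stat5b-knockdown array and 2.92, not well above background, on the control array, which is at least 1.36-fold higher in Stat5b-knockdown cells. Gabrd had 12.8, not well above background, on the Stat5b-knockdown array and 20.3 on the control array, which is at least 1.57-fold lower in Stat5b-knockdown cells. Both bounds are below 2-fold and rest on signals near the background limit.

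The rho subunits, known from the retina, were the GABA channels measured most fully. The neighbours Gabrr2 and Gabrr1 were both above background. Gabrr2 had 721 on the Stat5b-knockdown array and 831 on the control array (-0.20 ± 0.20). Gabrr1 had 36.8 on the Stat5b-knockdown array and 40.7 on the control array by one probe and 49.4 and 52.8 on the same arrays by the other (-0.12 ± 0.18), both in the last 64 rows. The 2 genes differed from 0 by no more than their software error. Gabrr3 was above background on neither array.

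The GABA-B receptor works as a pair of Gabbr1, which binds GABA, and Gabbr2, which couples to the G protein. Gabbr1 had 68.3 on the Stat5b-knockdown array and 64.1 on the control array by one probe (0.09), 86.7 and 66.2 by another (0.39) and 367 and 338 by the next (0.12), with a mean of 0.20 ± 0.13. All 3 were above 0 and below the 2-fold limit, and the fourth probe was dim. Gabbr2 was above background on neither array. Of 23 genes of GABA and glycine synthesis, transport and anchoring, 13 were measured, 0 passed 2-fold and the median was 0.08. The farthest from 0 was the glycine transporter Slc6a9, with 4017 on the Stat5b-knockdown array and 2171 on the control array (0.89 ± 0.20).

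Glycine and serotonin channels closed the set. Glra1, the adult glycine receptor alpha subunit of spinal cord, had 35.5 on the Stat5b-knockdown array and 39.7 on the control array (-0.16 ± 0.25) by 1 of 2 probes. Glra2, Glra3, Glra4 and Glrb were above background on neither array. Htr3a, the serotonin-gated cation channel subunit, had 2.96, not well above background, on the Stat5b-knockdown array and 38.4 on the control array, at least 2.96-fold lower in Stat5b-knockdown cells. That probe lay in the last 64 rows, and the gene's other probe was dim on both arrays. Htr3b, its neighbour, was above background on neither array. Of 18 muscarinic, other serotonin and purinergic receptor genes, 10 were measured on both arrays, and of these 0 passed 2-fold. Above 0 were 9 of the 10 and below 0 was 1, where 48.9% of all measured genes were below 0. The median of the 10 was 0.37. Htr2c, a serotonin receptor, had 73.0 on the Stat5b-knockdown array and 2.85, not well above background, on the control array, at least 6.03-fold higher in Stat5b-knockdown cells by a probe in the last 64 rows. Of the 10, the 2 farthest from 0 were P2rx6, an ATP-gated channel subunit, with 207 on the Stat5b-knockdown array and 106 on the control array (0.96 ± 0.21), and the muscarinic receptor Chrm3 at 0.55 ± 0.31.

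How far a gene's value rests on 1 probe was counted over the set. Of the 27 measured genes, 20 had 1 measured probe, and 11 had at least 1 further probe that was not measured. Of the 7 genes with several measured probes, 5 had them within 0.5 of each other on the log2 scale, and Grin2a and Gria1 did not. The last 64 rows held 5 measured probes of 4 genes, and Gabra5 and Gabrr1 were measured there alone. No receptor probe shared a run of 25 bases with a probe of another gene name.

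**Figure D5:**
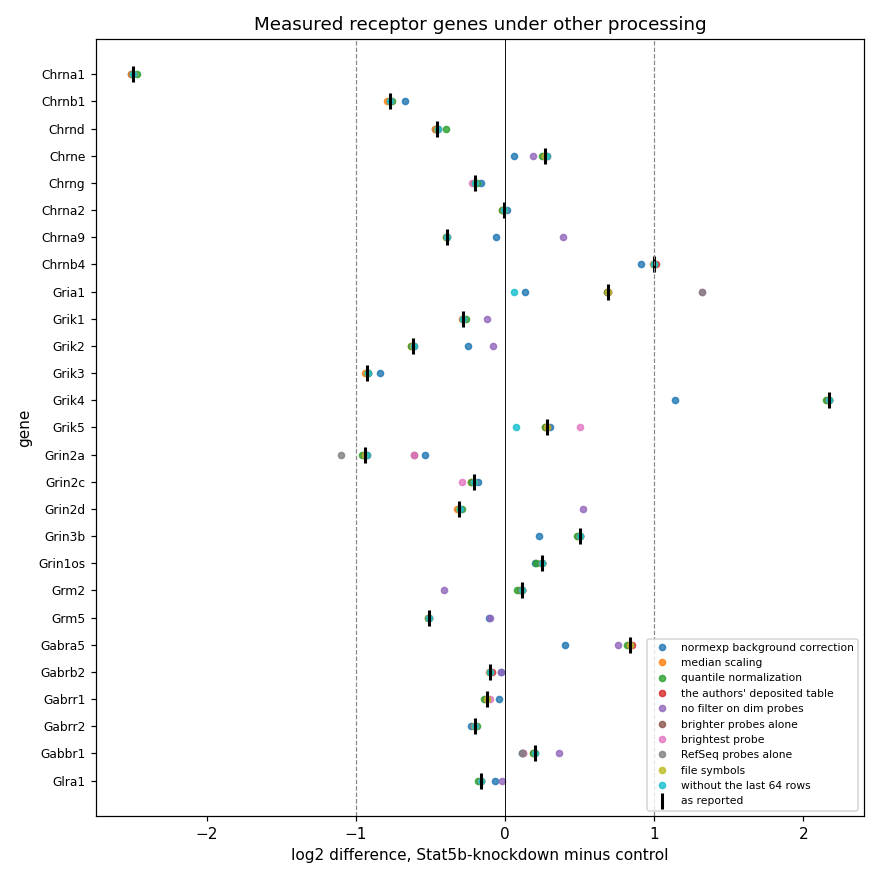
Log2 difference, Stat5b-knockdown minus control, of each measured gene as reported (black bars) and under 10 other ways of processing (coloured points), with dashed lines at 2-fold. Chrna1 stays between -2.51 and -2.47 and Grik4 past the line at 1.14 to 2.17, while Gria1 runs from 0.06 to 1.32 and Grin2a from -1.10 to -0.54.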

How the data were processed

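RNA of 1 Stat5b-knockdown and 1 control culture was read on 1-colour arrays with Agilent Feature Extraction 12.1.0.3, per the file headers, which name build mm9. The deposited intensity of a spot is background-corrected by that software and not scaled between arrays. The authors' deposited table holds log2 values, which equal log2 of that signal minus 8.94 on each array (column medians -3.81 on the Stat5b-knockdown and -3.82 on the control array), within 0.001 for 100% of 56305 single-spot probes.

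Here, outlier spots (94 on the Stat5b-knockdown and 112 on the control array) were left out, signals were floored at 1, scaled to the 75th percentile over 56605 probes and averaged over spots. A gene was the mean over probes that both arrays flagged well above background, named by accession or symbol through the RefSeq gene table. Of the receptor probes, that of Grin1os included, 137 matched by file symbol and 2 Grik2 probes were added through that table. Well above background were 58.6% of probes on the Stat5b-knockdown and 59.5% on the control array, and 0 spots were saturated. The number of arrays limits the precision. limma 3.58.1 served for normexp (offset 50), run on the median signal because the files hold no mean signal column. The added offset pulls differences between dim signals toward 0. The scripts that compute the differences were checked on simulated data, which tests no difference reported here. Members, lists and alternatives were chosen with earlier results of these data known. The symbol rule that gave the members used no measured values. Every receptor measured or with a bound of 2-fold or more is given with its signals. From the other lists, genes past 2-fold or else the 2 farthest from 0 are named, and genes above background on 1 array were added after their values were seen. Further markers, among them Myog, Tnni2, Acta1 and Nes, are named outside these rules. Some genes and 1 probe sequence that these rules would name are not reported here.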

Additional observations from a re-analysis of the deposited data

How the results depend on the processing

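The receptors, the pathway lists and Stat5b were recomputed under 10 alternatives, a gene only where it kept a probe. Counts of receptors in this section include Grin1os, which is not a receptor. Of 253 values of single receptors, 21 moved by more than the software error. Chrna1, Chrnb4 and Grik4, the genes past 2-fold, kept their direction in the 10, 10 and 9 alternatives that gave them a value. Each has 1 probe, so alternatives that only choose among probes or names could only return the reported value. That agreement was thus in part fixed in advance, as it was for other genes with 1 probe. All alternatives reuse the same 2 arrays. The count of receptors at least 2-fold higher, 2 as reported, was 1 after normexp and 1 after median scaling (Grik4 in both), 6 with no filter on dim probes and 1 among brighter probes alone (Chrnb4, as Grik4 was not among them). With RefSeq probes alone it was 3, as it was with the brightest probe, Gria1 being added in both. The count at least 2-fold lower, 1 as reported, was 2 with no filter (Chrna1 and Htr3a) and 2 with RefSeq probes alone (Chrna1 and Grin2a). Without the filter 67 receptors had a value and among brighter probes 15, against 27. The median of the receptors lay between -0.21 and 0.11, above 0 only without the filter, where that of all genes was 0.10. Sign changed for Chrna2 after normexp (0.01) and, without the filter, for Chrna9 (0.39), Grin2d (0.52) and Grm2 (-0.41). Stat5b was -1.49 without the filter. Cbln1, alone in the delta-type list, gave -0.45 after normexp, and the list's median was 0.11 without the filter; among brighter probes it had no value.

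Over all genes, 600 were higher and 394 lower as reported, against 190 and 168 after normexp, 1282 and 1000 without the filter and 293 and 261 among brighter probes. Without the last 64 rows 25 receptors were measured, with a median of -0.20. Of the other listed genes past 2-fold, Nptx2 (0.72), Cacng4 (-0.57), Dlgap3 (-0.70), Ache (0.74), Sparcl1 (0.83) and Tmem119 (0.85) were within 2-fold after normexp, while Dok7, Myod1 and Aldoc stayed past it under all 10 alternatives. Myod1 had 1 measured probe, so several of these alternatives could only return its reported value. No paired analysis was possible because each group had 1 array. Genes near the background limit, such as Chrna9, Gabrb2, Gria1, Gabrd and Gabre, are the least precise.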
